A study of Rattus norvegicus with 9 samples.

Results

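The insulin-like growth factor (IGF) system was examined in rat prostate on 1-colour expression arrays, for 10 genes taken by symbol: the ligands Igf1 and Igf2, the receptors Igf1r and Igf2r, and the binding proteins Igfbp2, Igfbp3, Igfbp4, Igfbp5, Igfbp6 and Igfbp7. These 10 genes had 12 probes, out of 15163 gene symbols with 17998 probes that could be named on the array. The family had been picked with group differences on these same arrays already known, so that all values of the 10 genes are a description. No p-value of a member is given, and counts of members past a threshold stand only beside the share of all genes past it. Prostates came from male Sprague Dawley rats that were 6 weeks old when the experiment began, with 3 rats and 3 arrays in each of 3 groups. Sham rats had a mock operation and received the vehicles, corn oil under the skin and water by mouth. In the BPH group, experimental prostatic hyperplasia was induced by removal of the testes and daily subcutaneous dihydrotestosterone (DHT, 3 mg/kg) over 4 weeks, with oral vehicle. The BPH+ghrelin group underwent the same induction and received ghrelin, a hormone of the stomach, by mouth (20 nmol/kg per day) over 2 weeks. This dose and route are those of the methods, and a figure legend names another dose and route. Both BPH groups therefore lacked testes. The methods and the series design name the androgen DHT, while the study's text, in parts of the methods too, also names testosterone. These rats were part of groups of 8, and standard errors and p-values measure only the spread between the arrays.

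IGF1 and IGF2 are secreted growth factors that signal through IGF1R, a receptor tyrosine kinase, and from there through insulin receptor substrates to PI3 kinase, AKT and mTOR. IGF2R, also the cation-independent mannose 6-phosphate receptor, binds IGF2 and takes it into lysosomes. IGF binding proteins hold both ligands outside the cell and prolong or limit their access to the receptor, and proteases release the ligand again. In prostate, IGFs are largely made by the stroma, and the epithelium carries the receptor. Growth hormone is the main stimulus of Igf1 in liver.

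Values are log2 signals after quantile normalization of the 9 arrays, given in the order of replicates 1, 2 and 3. A gene entered a comparison when its probe reached the scanner's mark for a signal clear of background on 3 or more of the 6 arrays concerned. Shares of all genes include genes known only by an accession or a probe, since not every probe could be named, and the number compared therefore exceeds the number of symbols. Sham replicate 2 was the dimmest array, with 61.4% of its probes clear of background, and the others had 69.5% or more. The 3 BPH arrays and BPH+ghrelin replicate 1 were scanned together, and a second scan took BPH+ghrelin replicates 2 and 3 along with sham replicates 1 and 2. Sham replicate 3 had a scan of its own. At most of 21477 probes, the middle value of a group came from the same array, which was BPH replicate 2 (71.8% of probes), BPH+ghrelin replicate 2 (69.4%) or sham replicate 3 (74.0%). The same arrays lay in between in 27 of 33 combinations of group and probe of the IGF genes. Each of the other 6 arrays held the middle value at 9.64% to 17.2% of probes, and the share that independent arrays would give was not measured. Whether the 3 arrays of a group are independent samples was not tested, and if they are not, the standard errors and adjusted p-values given here are too small. Values without them are given for the members that differed most. All 5 luminal epithelial markers looked for (Krt8, Krt18, Cdh1, Epcam and the prostatic secretory protein probasin, Pbsn) were on the array, and none of them was dim on all 9 arrays. In such bulk tissue, fewer cells of a type and less RNA per cell cannot be told apart.

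The ligand Igf2 was the member that differed most between groups. Its log2 signal was 8.39, 8.30 and 8.27 in sham, 8.50, 8.35 and 8.18 in BPH, and 7.15, 7.09 and 7.20 in BPH+ghrelin. All 3 BPH+ghrelin arrays were thus lower than any of the other 6 arrays, while sham and BPH covered the same range. Group means were 8.32 ± 0.06 in sham, 8.34 ± 0.16 in BPH and 7.15 ± 0.06 in BPH+ghrelin (SD, n = 3 each). Igf2 was 2.29-fold lower in BPH+ghrelin than in BPH (log2 difference -1.20, standard error 0.12) and 2.26-fold lower than in sham (-1.17, standard error 0.12), while BPH differed from sham by 0.02. A larger absolute difference between BPH+ghrelin and BPH was seen in 3.98% of all genes compared. Within 1 scan, the difference of BPH+ghrelin replicate 1 from the 3 BPH arrays was -1.20, and within the other, that of BPH+ghrelin replicates 2 and 3 from the 2 sham arrays was -1.20 as well. Without the 3 arrays in between, the differences were -1.17 against BPH and -1.17 against sham, and each standard error rose to 0.25. Background correction by normexp gave -0.94 and -0.90. The within-group SD of Igf2 over all 3 groups was 0.10, and 7.84% of all genes had a smaller one.

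Igf1, the other ligand and the product of growth hormone action in many tissues, showed the opposite pattern, with wide differences within groups and narrow ones between groups. Its brighter probe gave 11.79, 13.33 and 12.65 in sham, 11.78, 12.35 and 12.86 in BPH, and 12.09, 12.61 and 12.97 in BPH+ghrelin. Within sham alone, the lowest and the highest array were 2.91-fold apart, which exceeded each difference between groups. The groups overlapped in all 3 comparisons, with log2 differences of 0.23 for BPH+ghrelin against BPH, -0.26 for BPH against sham and -0.03 for BPH+ghrelin against sham (standard error 0.44 each). The second probe gave 9.00, 10.26 and 9.56 in sham, 9.05, 9.61 and 10.15 in BPH, and 9.20, 9.64 and 10.04 in BPH+ghrelin. Its group differences were 0.03, -0.00 and 0.02, so that the difference between both BPH groups seen with the first probe was not seen with the second. Within each group, however, both probes put the 3 arrays in the same order, and their deviations from the mean over 9 arrays differed by at most 0.21. The within-group SD of Igf1 was 0.60, and 87.3% of all genes had a smaller one. The sign of the small differences between groups depended on single arrays: BPH against sham was -0.66 without sham replicate 1 and 0.11 without sham replicate 2. Scaling to the 75th percentile gave 0.51 for BPH+ghrelin against BPH and -0.49 for BPH against sham. With the scan as a block, these were -0.24 and 0.48.

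**Figure D1:**
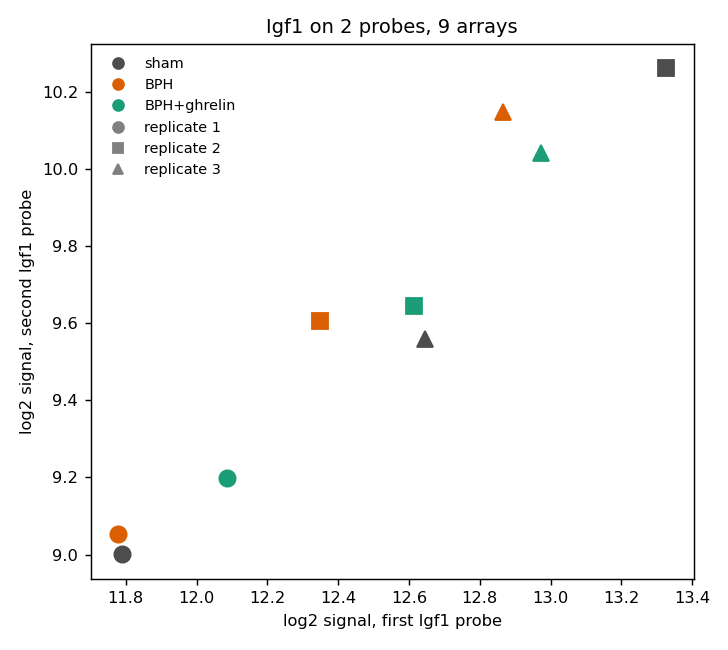
Log2 signal of the 2 Igf1 probes on the 9 arrays, with the brighter probe on the horizontal axis, colours for groups and symbols for replicates. The points of each group are spread along the same diagonal, from 11.78 to 13.33 on the brighter probe, and the groups lie on top of each other.

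The receptors had narrower ranges of group means (0.45 for Igf1r and 0.28 for Igf2r) than Igf2 (1.20). Igf1r, which transmits the signal of both ligands, was dim, and its log2 signal was 5.47, 5.04 and 5.24 in sham, 5.04, 4.86 and 4.64 in BPH, and 4.86, 4.76 and 4.79 in BPH+ghrelin. Each sham array was above each BPH+ghrelin array, while sham and BPH touched each other at 5.04. The log2 difference was -0.45 for BPH+ghrelin against sham, -0.40 for BPH against sham and -0.04 for BPH+ghrelin against BPH (standard error 0.16 each), and the last was 0.05 without BPH replicate 1. The Igf1r probe is spotted repeatedly, and 7 to 10 spots per array remained after removal of outliers, with a coefficient of variation of 7.04% to 16.8% between spots of 1 array. Before normalization, the spot signals, background-subtracted by the scanner software, were between 14.2 and 56.7. At such signals, the size of these differences depended on the background correction, and normexp reduced them to -0.14 and -0.13 against sham.

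Igf2r, which clears IGF2 and carries lysosomal enzymes, was bright, with 14.00, 13.53 and 13.72 in sham, 13.42, 13.56 and 13.42 in BPH, and 13.79, 13.57 and 13.52 in BPH+ghrelin. The groups overlapped in all 3 comparisons. Differences were -0.28 for BPH against sham, 0.16 for BPH+ghrelin against BPH and -0.12 for BPH+ghrelin against sham (standard error 0.15 each). Scaling to the 75th percentile in place of quantile normalization widened the first to -0.59 and the second to 0.55. The same scaling shifted the median of all genes in BPH against sham by -0.13 and in BPH+ghrelin against BPH by 0.08. Under quantile normalization, BPH against sham was -0.16 without sham replicate 1, and BPH+ghrelin against BPH was 0.08 without BPH+ghrelin replicate 1. BPH+ghrelin against sham was between -0.23 without sham replicate 2 and 0.00 without sham replicate 1, so that its sign rested on 1 array.

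Among the binding proteins, 3 were lower on every BPH+ghrelin array than on every BPH array: Igfbp2, Igfbp4 and Igfbp6. Igfbp2, a binding protein with higher affinity for IGF2 than for IGF1, gave 12.54, 12.00 and 12.33 in sham, 11.94, 12.07 and 12.07 in BPH, and 11.41, 11.53 and 11.77 in BPH+ghrelin. BPH+ghrelin was the lowest group and sham the highest, and BPH overlapped with sham only. Igfbp2 was 1.65-fold lower in BPH+ghrelin than in sham (log2 difference -0.72, standard error 0.17) and 1.37-fold lower than in BPH (-0.46, standard error 0.17), while BPH was -0.26 from sham (-0.14 without sham replicate 1 and -0.40 without sham replicate 2). The second probe of Igfbp2 gave 11.03, 10.30 and 10.84 in sham, 10.39, 10.54 and 10.76 in BPH, and 9.98, 9.98 and 10.12 in BPH+ghrelin, with differences of -0.70, -0.54 and -0.16. On both probes the BPH+ghrelin arrays were below all others. Among arrays scanned together, the difference on the first probe was -0.61 from BPH and -0.62 from sham, while scaling to the 75th percentile reduced that from BPH to -0.23. Without the 3 arrays in between, the differences were -0.42 and -0.68, with standard errors of 0.30.

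Igfbp4, which mostly restrains IGF action until it is cleaved by a pappalysin, gave 10.48, 9.49 and 10.17 in sham, 10.51, 10.54 and 10.59 in BPH, and 9.65, 9.84 and 9.97 in BPH+ghrelin. The BPH arrays lay close together and above both other groups, which overlapped. Igfbp4 was 1.65-fold lower in BPH+ghrelin than in BPH (log2 difference -0.72, standard error 0.24) and 1.41-fold higher in BPH than in sham (0.50, standard error 0.24). The latter difference was 0.22 without sham replicate 2, the dimmest array. BPH+ghrelin differed from sham by -0.23, by -0.01 without sham replicate 1 and by -0.50 without sham replicate 2. Without the 3 arrays in between, the differences were -0.73 against BPH and 0.56 for BPH against sham (standard error 0.39 each).

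Igfbp6, which prefers IGF2 over IGF1, gave 8.87, 6.88 and 8.59 in sham, 8.75, 8.68 and 8.58 in BPH, and 7.88, 7.67 and 7.69 in BPH+ghrelin. Sham replicate 2 was the lowest of all 9 arrays, while the other 2 sham arrays were at the level of BPH. Igfbp6 was 1.90-fold lower in BPH+ghrelin than in BPH (log2 difference -0.92, standard error 0.46). The comparisons with sham turned on replicate 2: BPH against sham was 0.56 with it and -0.06 without it, and BPH+ghrelin against sham was -0.36 with it and -0.98 without it. Without sham replicate 1, they were 0.94 and 0.02. Without the 3 arrays in between, sham replicate 2 weighed more, and the differences were -0.88 against BPH and -0.09 against sham (standard error 0.64 each). The wide standard error came from the same array, since the SD was 1.08 in sham, 0.09 in BPH and 0.11 in BPH+ghrelin.

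Igfbp3, the main carrier of IGFs in blood, gave 9.99, 9.52 and 9.82 in sham, 9.83, 9.56 and 9.15 in BPH, and 9.40, 9.34 and 9.27 in BPH+ghrelin. The BPH arrays spread over the range of both other groups, which did not overlap with each other. Differences were -0.44 for BPH+ghrelin against sham, -0.26 for BPH against sham and -0.18 for BPH+ghrelin against BPH (standard error 0.20 each). The last was -0.02 without BPH replicate 1 and -0.36 without BPH replicate 3, and BPH against sham was -0.42 and -0.08 without the same arrays, and -0.15 without sham replicate 1. Igfbp7, a secreted relative that binds IGFs only weakly, gave 10.73, 10.86 and 11.03 in sham, 10.90, 10.84 and 10.71 in BPH, and 10.32, 10.58 and 10.74 in BPH+ghrelin, and the groups overlapped in all 3 comparisons. Its differences were -0.33 for BPH+ghrelin against sham, -0.27 for BPH+ghrelin against BPH and -0.06 for BPH against sham (standard error 0.15 each), and BPH+ghrelin against BPH was -0.16 without BPH+ghrelin replicate 1. That difference of Igfbp7 was -0.11 with scaling to the 75th percentile and -0.50 with the scan as a block. Igfbp5, a binding protein that attaches to the matrix, was clear of background on 1 of 9 arrays (sham replicate 3), so that Igfbp5 was not compared and no fold is given.

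**Figure D2:**
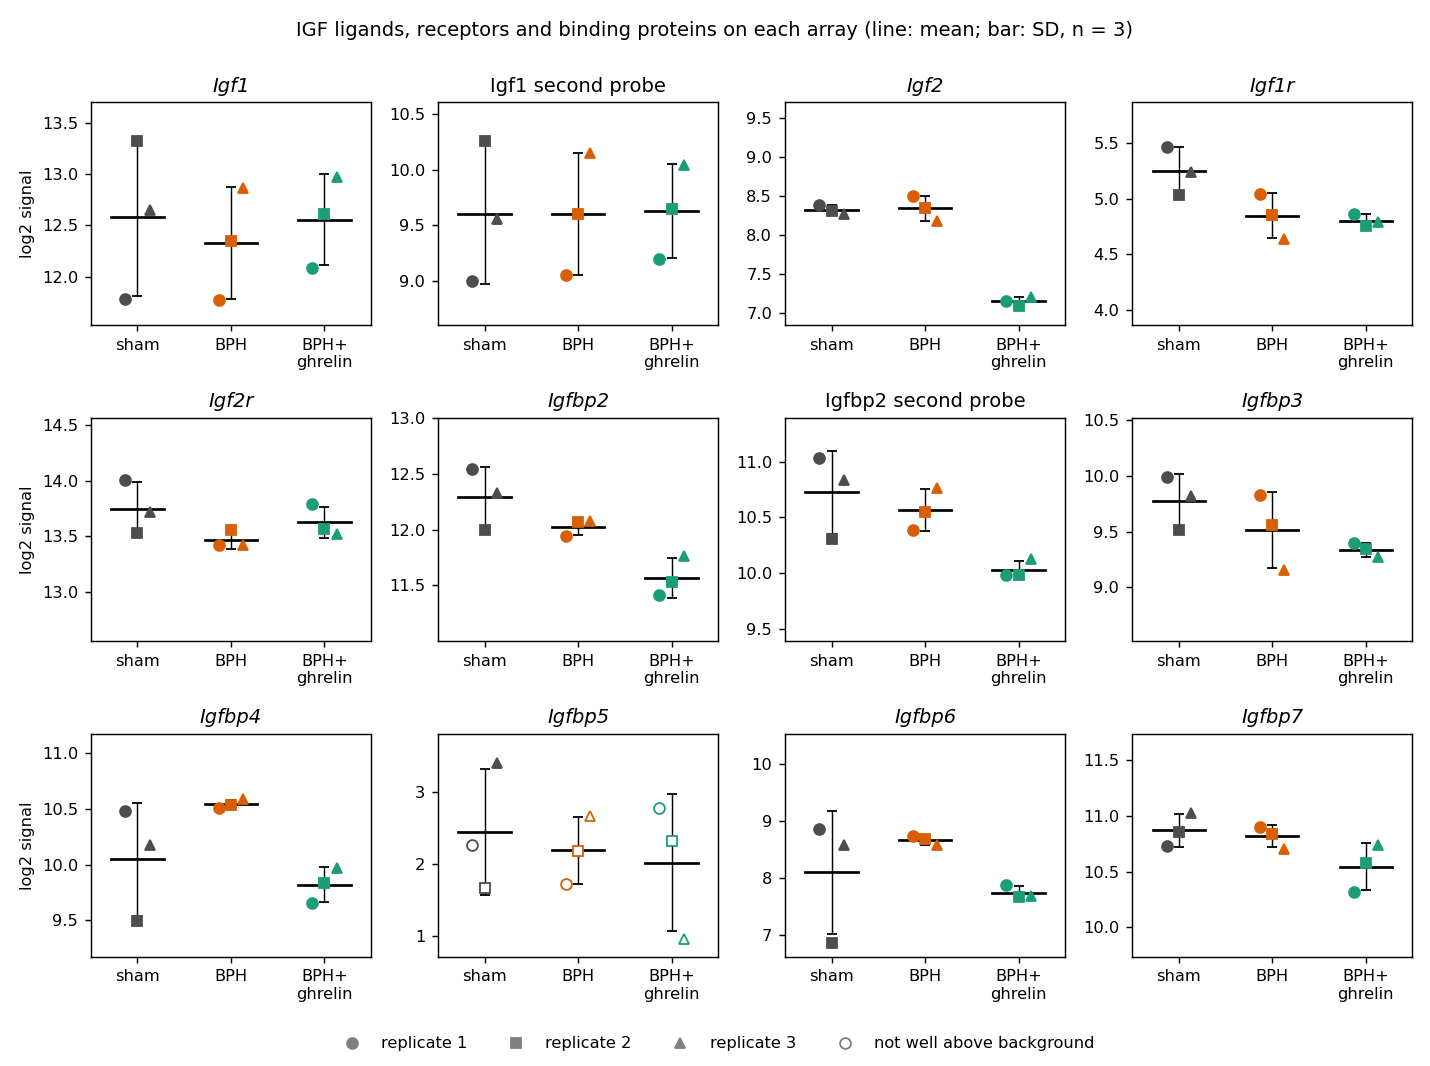
Log2 signal of the 12 probes of the 10 IGF genes on each array, by group, with the mean as a line and the SD (n = 3) as a bar. In Igf2 the 3 BPH+ghrelin arrays (7.09 to 7.20) are separate from the other 6 (8.18 to 8.50), whereas the Igf1 arrays of all groups cover the same range and sham replicate 2 is apart in Igfbp6 (6.88).

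In BPH+ghrelin against BPH, 7 of the 9 members compared were lower and 2 (Igf1 and Igf2r) were higher in BPH+ghrelin. Of all 19749 genes compared, 48.3% were lower. The median log2 difference was -0.27 in the members and 0.02 in all genes. Without BPH replicate 1, the signs of Igf1 (-0.05) and Igf1r (0.05) turned. In limma with Benjamini-Hochberg adjustment, 1 of 9 members (Igf2) had an adjusted p under 0.05, compared to 1.48% of all genes in either direction and 0.987% in the lower direction. There was no overlap between the arrays of both groups in 4 of 9 members, all lower in BPH+ghrelin, compared to 39.2% of all genes in either direction, 19.3% in the lower and 19.8% in the higher direction. A difference of at least 2-fold was seen in 1 of 9 members (Igf2) and in 6.1% of all genes. The call of Igf2 was lost without BPH replicate 1, without BPH replicate 2 and without BPH+ghrelin replicate 2, where the differences were -1.12, -1.20 and -1.16. It was also lost with the scan as a block (-1.20), where 1 BPH+ghrelin array is set against the BPH arrays. With 3 against 3 arrays, an exact two-sided permutation test cannot give a p under 0.1. As the family was chosen with this contrast known, nothing is read from these counts.

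In BPH against sham, 6 of 9 members were lower and 3 (Igf2, Igfbp4 and Igfbp6) were higher in BPH. Of all 19552 genes, 46.3% were lower. The median was -0.26 in the members, beside 0.04 in all genes. Some signs of the members rested on 1 array. Igf2 was -0.06 without BPH replicate 1 and Igfbp7 was 0.02 without sham replicate 3. Without sham replicate 2, Igf1 was 0.11 and Igfbp6 was -0.06. Of the 9 members, 0 had an adjusted p under 0.05 in limma, while 4.33% of all genes did (2.15% higher and 2.18% lower in BPH). An unadjusted p under 0.05 was seen in 1 of 9 members and in 5174 of the 19552 genes. The arrays did not overlap in 1 of 9 members (Igfbp4, higher in BPH), compared to 31.3% of all genes in either direction and 17.1% in the higher direction. A difference of at least 2-fold was seen in 0 of 9 members and in 8.16% of all genes. In BPH+ghrelin against sham, 9 of 9 members were lower in BPH+ghrelin, beside 45.6% of all 19197 genes, with a median of -0.36 beside 0.04. Of these signs, 3 rested on 1 array: without sham replicate 2, Igf1 was 0.34 (and 0.02 on its second probe with all arrays), and without sham replicate 1, Igf2r was 0.00 and Igfbp6 0.02. Igf2 and Igfbp2 had an adjusted p under 0.05 (2 of 9, compared to 6.3% of all genes and 3.3% in the lower direction), and 4 of 9 members did not overlap (Igf2, Igf1r, Igfbp2 and Igfbp3; 30.4% of all genes and 12.8% in the lower direction). At least 2-fold differences were seen in 1 of 9 members (Igf2) and in 7.41% of all genes. The call of Igfbp2 was kept without sham replicate 2 and lost without each of the other 5 arrays in turn, with differences between -0.86 and -0.60. With the scan as a block, the calls of both Igf2 (-1.20) and Igfbp2 (-0.62) were lost. The 3 comparisons share arrays with each other, and their values are therefore not independent. Without the 3 arrays in between, 0 of 9 members had an adjusted p under 0.05 in any of the 3 comparisons, where 0, 3 and 2 of all genes did, so that nothing about the members can be read from it.

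**Figure D3:**
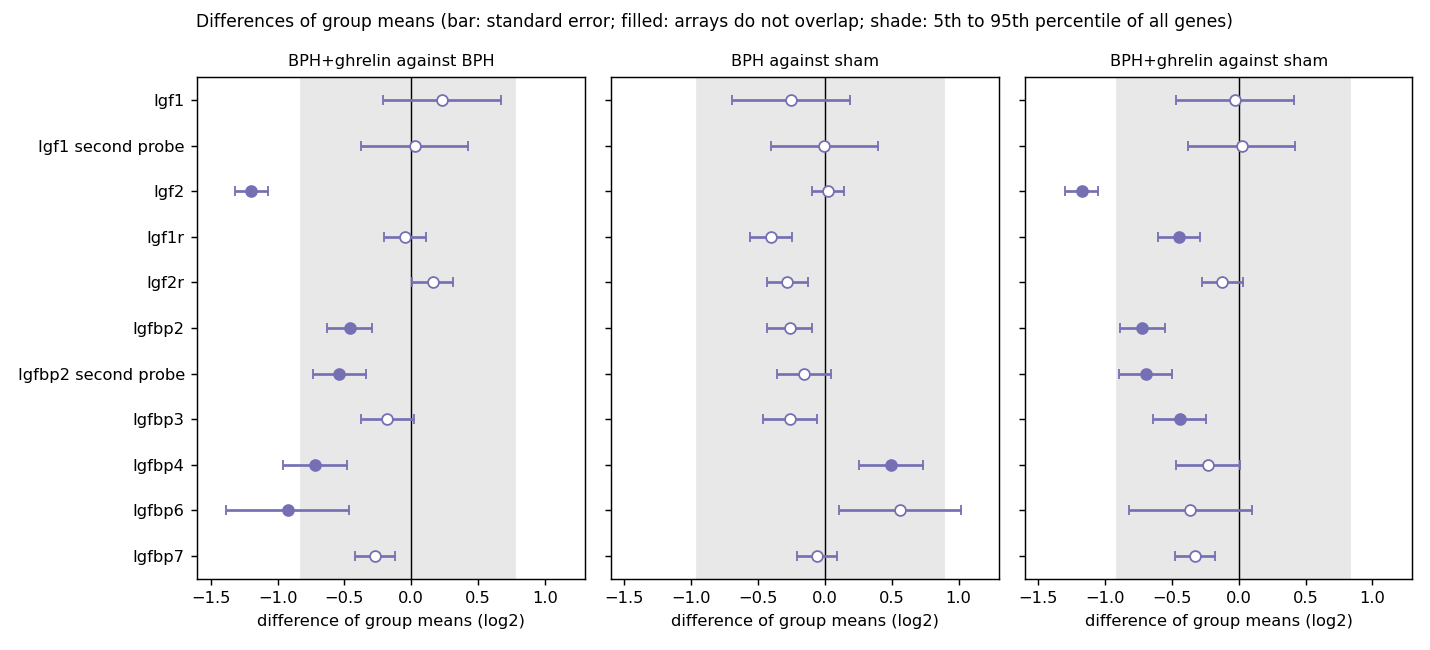
Difference of group means (log2) of 11 probes of 9 IGF genes in the 3 comparisons, with the standard error as a bar, filled where the groups had no overlap, and with the 5th to 95th percentile of all genes shaded. Igf2 lies outside the shade in both comparisons of BPH+ghrelin (-1.20 and -1.17) and at 0.02 in BPH against sham, and Igfbp6 lies outside it in BPH+ghrelin against BPH (-0.92).

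Among markers of other cell types, the comparison of BPH+ghrelin with BPH had 1 call each in the leukocyte, smooth muscle and fibroblast lists, all lower with ghrelin, and 0 calls in the epithelial, endothelial, striated muscle, adipocyte, nerve and seminal vesicle lists. The summed signal of 4 leukocyte markers (Ptprc, Cd68, Csf1r and Cd3e) was 618 to 652 in BPH+ghrelin, 753 to 1023 in BPH and 820 to 925 in sham, and Ptprc passed the adjusted threshold in limma as lower in BPH+ghrelin in both comparisons. That of 6 smooth muscle markers was 7855 to 9730 in BPH+ghrelin, 10521 to 16413 in BPH and 9595 to 16140 in sham, and 1 of 6 (Myh11) passed as lower in BPH+ghrelin against BPH and against sham. For 6 fibroblast markers the sums overlapped (18535 to 25758, 19402 to 29598 and 12963 to 23924), and 1 of 6 (Lum) passed as lower in BPH+ghrelin in both comparisons. None of these 16 genes was dim on all arrays, and their part in the differences of the IGF genes was not tested. Sham replicate 2, the array on which Igfbp4 and Igfbp6 were lowest, had the lowest fibroblast sum of all arrays (12963), the lowest smooth muscle (9595) and striated muscle (271) sums within sham and the highest adipocyte sum of all (10020), and their part in its IGF values was not tested. The adipocyte sum, from 4 of 5 markers on the array, ranged from 481 to 8145 within BPH+ghrelin and from 780 to 10020 within sham. The seminal vesicle sum of 4 markers was 89994 to 156865 in sham, 707 to 28260 in BPH and 543 to 3865 in BPH+ghrelin. Both BPH groups thus also differed from sham in this sum, and whether the content of this tissue differed was not tested. The luminal sum was 129523 to 139931 in sham, 58606 to 90527 in BPH and 67681 to 77299 in BPH+ghrelin, with Krt8 and Pbsn called against sham in both comparisons, 1 higher and 1 lower. Such a sum is carried by its brightest markers, and the median log2 difference of the 5 luminal markers was 0.11 in BPH against sham and -0.21 in BPH+ghrelin against sham. The basal sum, from 3 of 4 markers on the array, was 2617 to 3064 in sham, 3767 to 5839 in BPH and 5910 to 5966 in BPH+ghrelin, with Krt14 called higher in BPH and Krt15 in BPH+ghrelin. The endothelial sum, from 3 of 4 markers on the array, was 1125 to 1425 in sham, 793 to 1233 in BPH and 750 to 878 in BPH+ghrelin, with Pecam1 called lower in BPH+ghrelin. The striated muscle sum was 271 to 416 in sham, 222 to 439 in BPH and 244 to 252 in BPH+ghrelin, with Ckm called lower in both BPH groups. The part of these epithelial, endothelial, muscle and seminal vesicle differences in the comparisons with sham was not tested.

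For the 3 members with the widest range of group means, the genes with the most similar pattern over the 9 arrays were looked up among 11766 named genes by Pearson's r, as a description. Closest to Igf2 were Kank1 (r = 0.996), which encodes a regulator of the actin cytoskeleton, Ccn5 (r = 0.988), a matricellular protein, and Sparcl1 (r = 0.983), a secreted matrix protein. Kank1 had group means of 7.49 in sham, 7.49 in BPH and 6.32 in BPH+ghrelin. For Ccn5 they were 5.17, 5.14 and 2.62, and for Sparcl1 10.8, 10.9 and 9.72. As with Igf2, the 3 BPH+ghrelin arrays were lowest in each of these genes, which follows from picking them by their likeness to Igf2. Ccn5 was dim on these arrays (2.37, 2.64 and 2.84), so that the size of its step is not ranked against that of Igf2. Closest to Igfbp6 were Camk2d (r = 0.991), Nxt2 (r = 0.990) and Tmem65 (r = 0.985), and closest to Igfbp2 were the chemokine Ccl2 (r = 0.975), Shprh (r = 0.957) and the matrix protein Smoc2 (r = 0.948). All these values share the same 9 arrays and their 3 groups, and in the case of Igfbp6 the low sham replicate 2.

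**Figure D4:**
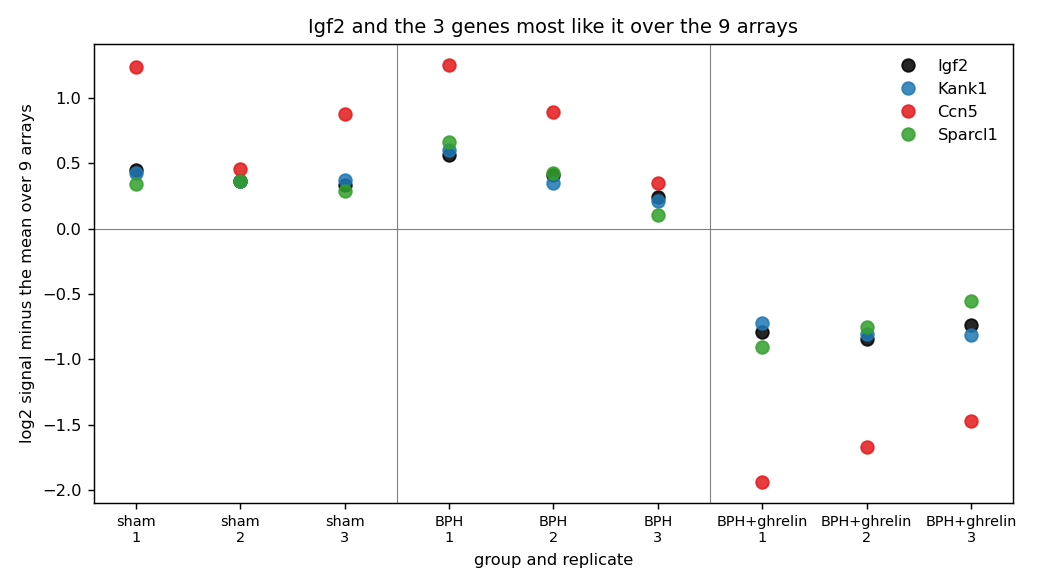
Log2 signal minus the mean over the 9 arrays for Igf2 and the 3 genes with the highest r to it, by group and replicate. The 4 genes are above their mean on all sham and BPH arrays and below it on all BPH+ghrelin arrays. Ccn5 has the widest step drawn, but was dim on the BPH+ghrelin arrays.

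RefSeq promoter windows of assembly GRCr8 were found for 10 of 10 members, 11 windows in all since Igf2 has 2 starts. Those of Igf2 and of the binding proteins that were lower on all BPH+ghrelin than on all BPH arrays are shown as the 250 bases before the start, in the direction of the gene. Capitals mark matches, on either strand, to 3 motifs: the half-site TGTTCT that androgen and glucocorticoid receptors recognize, the GC box GGGCGG, and the TATA box TATAAA. On the opposite strand they read AGAACA for the half-site, CCGCCC for the GC box and TTTATA for the TATA box.
Igf2, chr1:207250476-207250725, minus strand: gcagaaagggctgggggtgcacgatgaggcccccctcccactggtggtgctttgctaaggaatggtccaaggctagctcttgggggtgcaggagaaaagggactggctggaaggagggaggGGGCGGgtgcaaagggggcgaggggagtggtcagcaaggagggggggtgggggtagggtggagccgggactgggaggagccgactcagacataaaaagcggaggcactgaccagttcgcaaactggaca
Igf2, other start, chr1:207253981-207254230, minus strand: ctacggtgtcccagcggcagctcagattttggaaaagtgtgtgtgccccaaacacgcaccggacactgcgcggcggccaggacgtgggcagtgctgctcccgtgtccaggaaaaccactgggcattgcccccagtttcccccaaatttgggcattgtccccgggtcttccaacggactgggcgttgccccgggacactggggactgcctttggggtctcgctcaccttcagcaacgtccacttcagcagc
Igfbp2, chr9:81864561-81864810, plus strand: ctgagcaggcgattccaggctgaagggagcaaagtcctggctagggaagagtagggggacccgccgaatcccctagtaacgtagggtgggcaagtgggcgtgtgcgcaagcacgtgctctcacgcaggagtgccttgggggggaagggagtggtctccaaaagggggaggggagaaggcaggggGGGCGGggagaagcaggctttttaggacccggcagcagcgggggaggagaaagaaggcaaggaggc
Igfbp4, chr10:84491221-84491470, plus strand: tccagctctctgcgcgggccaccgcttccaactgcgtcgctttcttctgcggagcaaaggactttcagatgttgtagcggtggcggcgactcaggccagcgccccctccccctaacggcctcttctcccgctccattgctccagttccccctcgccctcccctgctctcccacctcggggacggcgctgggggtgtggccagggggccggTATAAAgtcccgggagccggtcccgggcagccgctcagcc
Igfbp6, chr7:135154669-135154918, plus strand: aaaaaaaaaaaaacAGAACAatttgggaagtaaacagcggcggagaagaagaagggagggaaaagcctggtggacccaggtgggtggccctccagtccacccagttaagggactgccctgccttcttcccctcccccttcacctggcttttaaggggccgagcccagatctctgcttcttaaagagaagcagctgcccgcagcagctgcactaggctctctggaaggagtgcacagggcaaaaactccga

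None of the 3 motifs was found in all 5 windows shown. The first Igf2 window had GGGCGG 129 bases before the start and the other had none of the 3 motifs. Igfbp2 had GGGCGG at 66 bases, Igfbp4 had TATAAA at 40 bases, and Igfbp6 had TGTTCT on the opposite strand at 236 bases. Among the members not shown, Igf1 had TGTTCT at 55 bases, and GGGCGG was found in Igf1r, Igf2r and Igfbp7. Over the 11 windows, TGTTCT was found in 2, GGGCGG in 5 and TATAAA in 1, compared to 17.5%, 30.5% and 12.9% of 33469 rat promoter windows of the same length. Igfbp2 and Igfbp5 lie next to each other on chromosome 9, on opposite strands. A match is only a description of the letters, and the arrays do not measure binding.

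Other genes of the pathway were taken from a list of 43 genes that are not members, of which 35 had a named probe on the array and 28 could be compared in at least 1 comparison. They were tested in limma with Benjamini-Hochberg adjustment over all genes. This list, too, was drawn up with results of these arrays known, and its counts are not independent evidence. In BPH+ghrelin against BPH, 2 of 28 fell and 0 rose at an adjusted p under 0.05 (all genes, 1.48%, and 0.987% lower). Lower means were seen in 22 of 28, beside 48.3% of all genes (median log2 difference -0.31, beside 0.02 in all genes). Stc1, which encodes stanniocalcin 1, an inhibitor of pappalysins, fell by 2.52-fold (log2 difference -1.33, standard error 0.21, adjusted p 0.0301). Its log2 signal was 6.57, 6.24 and 6.07 in BPH, 5.17, 4.88 and 4.84 in BPH+ghrelin, and 6.15, 5.49 and 5.89 in sham, so that the BPH+ghrelin arrays were lowest. With 1 array left out, Stc1 kept its call only without BPH replicate 3, and its adjusted p was 0.0611 to 0.160 without each of the other 5. Normexp reduced the difference of Stc1 to -0.56 (adjusted p 0.0382), and the call was lost with the scan as a block (-1.13, adjusted p 0.344).

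In BPH against sham, 2 of 28 pathway genes rose and 1 fell (all genes, 2.15% higher and 2.18% lower). Lower means were seen in 7 of 28, beside 46.3% of all genes (median 0.30, beside 0.04 in all genes). Stat5a, a transcription factor that carries growth hormone and prolactin signals, was 13.49, 12.58 and 13.15 in sham, 10.86, 10.42 and 9.81 in BPH, and 10.20, 10.23 and 10.30 in BPH+ghrelin. All sham arrays were above all others, and both BPH groups overlapped. Stat5a fell by 6.56-fold in BPH (log2 difference -2.71, standard error 0.30, adjusted p 0.00450) and by 7.12-fold in BPH+ghrelin (-2.83, standard error 0.30, adjusted p 0.00249), and BPH+ghrelin against BPH was -0.12 (adjusted p 0.849). Leaving out any single array kept the call in both comparisons with sham. It was lost with the scan as a block (-2.61 and -2.77) and without the 3 arrays in between (-2.71 and -2.80). Its relative Stat5b gave 0.13 in BPH against sham (adjusted p 0.824). The seminal vesicle sum was also higher in sham (89994 to 156865) than in BPH (707 to 28260) and BPH+ghrelin (543 to 3865). The part of this tissue in the Stat5a differences was not tested. No scan held both BPH and sham arrays, so that scan and group cannot be told apart in BPH against sham. Adam9, a membrane protease, rose in BPH from 9.75, 9.33 and 9.54 to 10.15, 10.33 and 10.40 (log2 difference 0.75, standard error 0.15, adjusted p 0.0325). Mtor, the kinase at the end of the AKT pathway, rose from 7.32, 6.99 and 7.18 to 7.89, 7.79 and 7.71 (0.63, standard error 0.13, adjusted p 0.0355). Adam9 lost its call without BPH replicate 2 (adjusted p 0.154), BPH replicate 3 (0.0940) or sham replicate 3 (0.122). Mtor lost it without BPH replicate 1 (0.0755), BPH replicate 2 (0.162), BPH replicate 3 (0.0721) or sham replicate 3 (0.125). Both calls were lost with the scan as a block (0.781 for Adam9 and 0.780 for Mtor).

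In BPH+ghrelin against sham, 4 of 27 pathway genes fell and 0 rose (all genes, 6.3%, and 3.3% lower), with a median of 0.05 beside 0.04 in all genes. Besides Stat5a and Stc1 (-0.88, adjusted p 0.0454), these were Irs2 and Grb14, both adaptors of insulin and IGF receptors. Irs2 fell from 7.11, 7.60 and 7.11 in sham to 6.35, 6.29 and 6.36 in BPH+ghrelin (log2 difference -0.94, standard error 0.21, adjusted p 0.0380), and BPH lay at 7.53, 7.22 and 6.82. Grb14, an adaptor that inhibits the insulin receptor, fell by 4.75-fold (-2.25, standard error 0.50, adjusted p 0.0391), from 7.79, 9.28 and 8.42 to 5.39, 6.36 and 7.00, and its other probe gave -1.83. In BPH, Grb14 was 7.32, 6.95 and 6.26, a difference of -1.65 from sham (adjusted p 0.0965 in limma). BPH and BPH+ghrelin overlapped in Grb14, with a difference of -0.59. Stc1 kept its call only without sham replicate 2 (adjusted p 0.0692 to 0.165 without each of the others), Irs2 only without sham replicate 1 or sham replicate 2 (0.0919 to 0.140), and Grb14 only without BPH+ghrelin replicate 3 or sham replicate 1 (0.0572 to 0.130). With normexp, Irs2 was -0.58 (0.0555) and Stc1 -0.36 (0.0772), both without a call, and Grb14 was -1.45 (0.0453). With the scan as a block, all 4 calls were lost.

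Of the other pathway groups, the near relatives were represented by Igfbp1, a binding protein that is mainly made in liver, which was 7.08, 7.20 and 6.90 in sham, 6.47, 6.62 and 6.69 in BPH, and 6.88, 6.94 and 6.94 in BPH+ghrelin. Igfbp1 gave -0.47 in BPH against sham (adjusted p 0.0711) and 0.32 in BPH+ghrelin against BPH (adjusted p 0.191). Lrp1, an endocytic receptor that also takes up Igfbp3, gave 0.56 in BPH against sham (adjusted p 0.311), and 0.13 without sham replicate 2. Of 3 mRNA binding proteins on the list, 0 could be compared. Without the 3 arrays in between, 0 pathway genes had an adjusted p under 0.05 in limma, and 2, 3 and 3 had an unadjusted p under 0.05 in BPH+ghrelin against BPH, BPH against sham and BPH+ghrelin against sham.

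**Figure D5:**
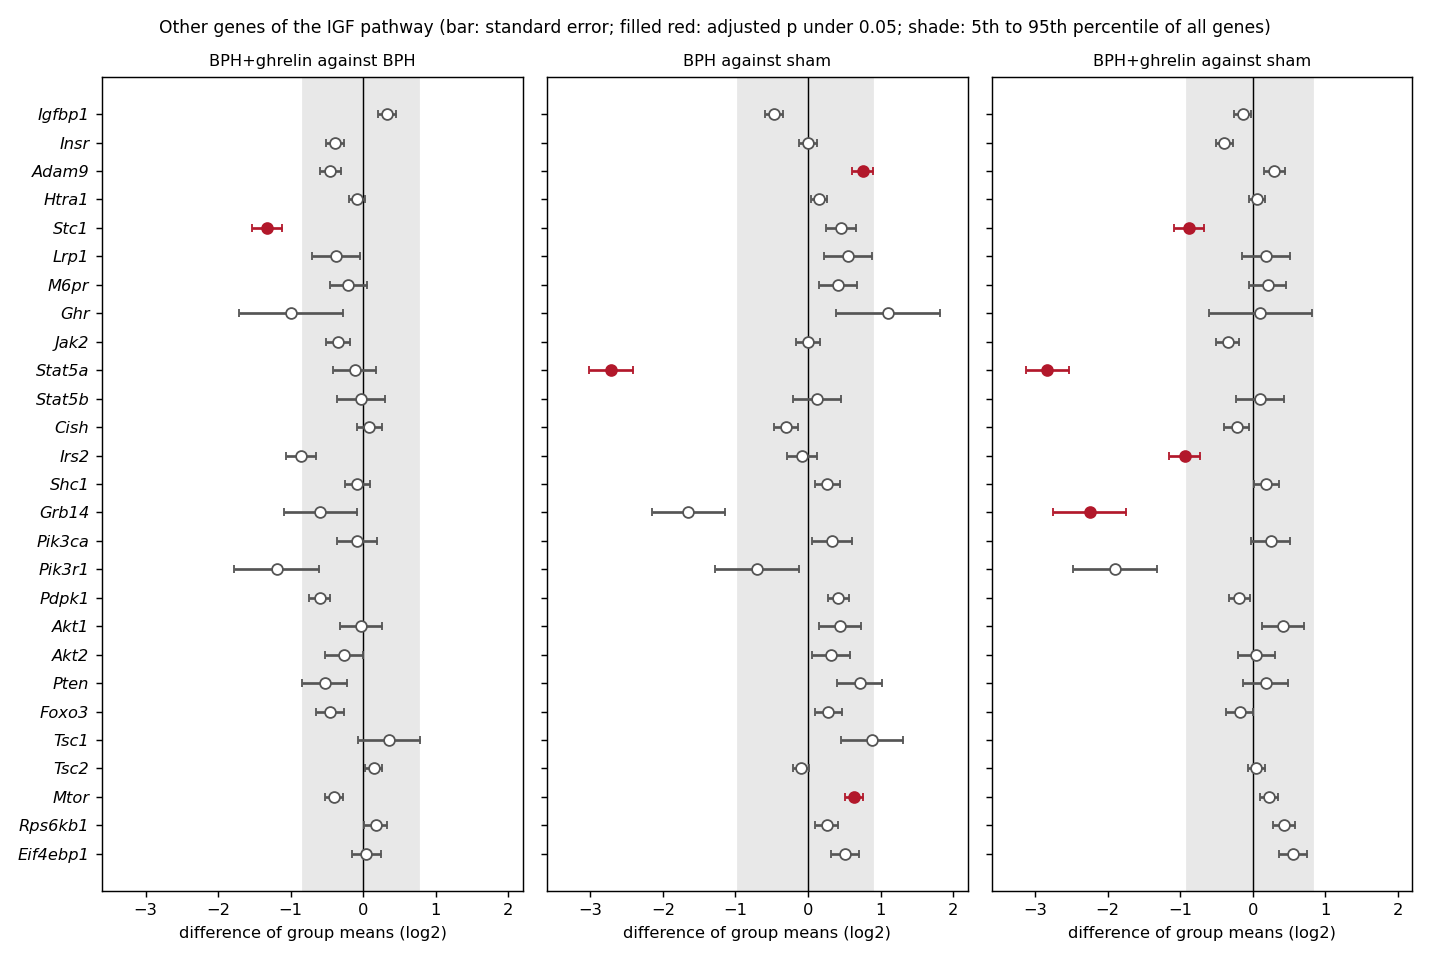
Difference of group means (log2) of 27 of the 28 other IGF pathway genes compared, in the 3 comparisons, with the standard error as a bar and red where the adjusted p was under 0.05, over the shaded 5th to 95th percentile of all genes. Of the genes drawn, Stat5a is the lowest in both comparisons with sham (-2.71 and -2.83) and at -0.12 in BPH+ghrelin against BPH.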

How the data were processed

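Gene expression was measured in 9 rat prostates, with groups taken from the sample labels. The intensities deposited by the authors had been background-subtracted by the scanner software and were not normalized between arrays. The authors also deposited a matrix of log2 values after quantile normalization in GeneSpring GX, and it was used only as an alternative. Outlier spots (313 to 741 per array) were removed, the remaining spots of 1 probe averaged, and 11 of 30367 probes dropped. Log2 signals of 30356 probes were quantile normalized, as in the study. Probes were named by accession through RefSeq (GRCr8), which named 59.3% of them. The array headers name another assembly, so that coordinates are given for RefSeq promoters only. No spot was saturated, and the number of arrays limits the precision.

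Probes with no symbol were grouped by accession, or kept by probe, and counted as genes. Genes were represented by their brightest passing probe and compared with limma (lmFit and eBayes, 9 arrays, 3 groups), with Benjamini-Hochberg adjustment over all genes. A call is an adjusted p under 0.05. Standard errors of members come from the same model on all probes. The model was tested on simulated data. R 4.3.3 with limma 3.58.1 and Python 3.11.15 were used.

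The members, the gene lists and the alternatives were chosen with earlier results of these data known. Genes named in the text were all members, each pathway gene with a call, except 1 that is counted but not reported here, the pathway gene with the largest difference in each group of the list, and the 3 genes most similar to each of the 3 members with the widest range of group means. Stat5b, the luminal and leukocyte markers, and Myh11, Lum, Krt14, Krt15, Pecam1 and Ckm were named in addition. Alternatives were another scaling, background correction, probe filter, probe summary, set of arrays or variance model, the deposited matrix, the scan or replicate number as a block, and each array left out. For normexp (offset 50), the median signal was used, since the scanner output holds no mean signal. Leaving out the 3 arrays in between was chosen after seeing the data.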

Additional observations from a re-analysis of the deposited data

How the results depend on the processing

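Of 459 recomputed differences of the members, 129 equal the reported value by construction, since another filter, the replicate block, another variance model or, for a gene with 1 probe, the mean of probes leaves a difference of means as it is. Of the other 330, 311 moved by less than the SD between replicates and 19 by more. Changes of sign were counted only for differences with a call, and 0 of those changed sign. Differences without a call did change sign within the SD. For example, Igf1 in BPH+ghrelin against BPH went from 0.23 to -0.24 with the scan as a block. Igf2 kept its sign and an adjusted p under 0.05 in 8 of 11 alternatives and 3 of 6 fits with 1 array left out against BPH (log2 difference -1.28 to -0.94), and in 9 of 11 and 6 of 6 against sham (-1.25 to -0.90). Igfbp2 against sham was called in 5 of 11 and, with 1 array left out, in 1 of 6 (-0.86 to -0.60). Igfbp6 in BPH+ghrelin against sham was called only without sham replicate 2 (-0.98), where 1921 of 19197 genes were called. With the 6 arrays compared only, Igfbp4 (-0.73) and Igfbp6 (-0.93) were also called in BPH+ghrelin against BPH, where 2101 of 19749 genes were called. With scaling to the 75th percentile, Igf2r was called in BPH against sham (-0.59), where 898 of 19552 genes were called.

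The number of all genes called was 293 in BPH+ghrelin against BPH, 847 in BPH against sham and 1210 in BPH+ghrelin against sham. In this order, it was 195, 533 and 803 without a filter on dim probes and 515, 898 and 1327 with scaling to the 75th percentile. With the 6 arrays compared only, it was 2101, 181 and 899. With the scan as a block it was 2, 2 and 84, and without the 3 arrays in between it was 0, 3 and 2 (limma; 831, 1182 and 1338 at an unadjusted p under 0.05). With 1 array left out, it ranged from 3 (without BPH replicate 2) to 400 (without BPH replicate 3) in BPH+ghrelin against BPH, where it was 7 without BPH+ghrelin replicate 2, 9 without BPH replicate 1, 34 without BPH+ghrelin replicate 3 and 79 without BPH+ghrelin replicate 1. In BPH against sham it ranged from 119 (without BPH replicate 2) to 3082 (without sham replicate 1), and it was 160 without sham replicate 3 and 262 without BPH replicate 3. In BPH+ghrelin against sham it ranged from 224 (without BPH+ghrelin replicate 2) to 1921 (without sham replicate 2), and it was 257 without sham replicate 3, 407 without BPH+ghrelin replicate 1 and 553 without BPH+ghrelin replicate 3. The share of higher genes among those called was 33.4% in BPH+ghrelin against BPH, 47.2% with the 75th percentile and 44.8% with normexp, and in BPH against sham 49.7% and, with the 75th percentile, 32.0%.

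The pathway genes called numbered 2, 3 and 4. They were 4, 1 and 2 with the 6 arrays compared only, 0 in each comparison with the scan as a block (6, 3 and 5 at an unadjusted p under 0.05) and 0 in each without the 3 arrays in between (2, 3 and 3). In BPH+ghrelin against BPH, 1 was called with trend and robust eBayes, and in BPH+ghrelin against sham, 2 with normexp and 2 without the filter. With 1 array left out, the ranges were 0 to 4 (4 without BPH replicate 3, and 0 without any other of the 6 arrays, where 6 to 8 had an unadjusted p under 0.05), 1 to 5 (5 without sham replicate 1, and 1 without BPH replicate 2, BPH replicate 3 or sham replicate 3) and 1 to 4 (1 without BPH+ghrelin replicate 1, BPH+ghrelin replicate 2 or sham replicate 3, and 2 without BPH+ghrelin replicate 3).

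With the replicate block, Igf2 against BPH (-1.20), Igfbp2 against sham (-0.72) and Stc1 against BPH (-1.33) lost their calls, as did Adam9 and Mtor in BPH against sham (adjusted p 0.0877 and 0.0814) and Irs2 and Grb14 in BPH+ghrelin against sham (0.0756 and 0.0755), and 17, 243 and 461 genes and 0, 1 and 2 pathway genes were called (9 of 28 at an unadjusted p under 0.05 in BPH+ghrelin against BPH). The replicate numbers did not pair the samples, as only 1 of 9 same-numbered pairs of arrays had a correlation of deviations over 0.1 (range -0.15 to 0.30). The scan block compares BPH+ghrelin replicate 1 alone with the BPH arrays, and no scan held both BPH and sham arrays. The causes of these changes were not tested. Dim probes (Igf1r and Igfbp5) limit the size of differences that can be given.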
